A study of Mus musculus with 2 samples.

Results

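The 10 genes described here encode proteins of the TRIM28-linked heterochromatin machinery: the co-repressor Trim28, the histone methyltransferases Setdb1, Suv39h2, Ehmt1 and Ehmt2, the heterochromatin protein 1 (HP1) genes Cbx1, Cbx3 and Cbx5, the histone chaperone gene Daxx and the ATPase gene Morc3. They were chosen by name, as 10 of 21938 protein-coding genes on the nuclear chromosomes, and were examined for peaks of the chromatin remodeler SRCAP at their promoters. An antibody against GFP, which also binds YPet, was used to map SRCAP by CUT&Tag in 2 replicates of SYAT cells, a CGR8 mouse embryonic stem cell line in which SRCAP carries YPet and an auxin-inducible degron on both alleles and which expresses the OsTir1 receptor. All cells were in the control condition, in serum and LIF medium with auxinole, which blocks auxin-driven degradation, so no condition was compared. The peak lists hold no expression values, so the cell type was not checked against its markers here. SYAT is a single engineered line, and the labels do not say whether the replicates came from separate cultures, while the study says of its experiments in general that replicates were grown and treated separately.

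In CUT&Tag, an antibody directs the Tn5 transposase to the protein of interest, and fragments cut there are sequenced and piled up into peaks. SRCAP is an ATPase whose complex loads the histone variant H2A.Z into nucleosomes in place of H2A, and H2A.Z is found at many active promoters. TRIM28 (also KAP1) is brought to DNA by KRAB zinc finger proteins and recruits SETDB1, which methylates histone H3 on lysine 9 (H3K9). HP1 proteins read this mark, and in embryonic stem cells this pathway is known for silencing endogenous retroviruses. The peaks described here lie at the genes that encode this machinery, and the binding sites of these proteins were not measured.

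The peak lists held 6158 peaks in replicate 1 and 12958 in replicate 2. Each peak has a position and a score, the value of the peak caller, which was a whole number of at least 13 and reached 4910 in the first list and 6452 in the second. Read depth is unknown, so scores are placed below as percentiles among the promoter peaks of the same replicate, 3348 in replicate 1 and 6719 in replicate 2. A promoter is a window that starts 1000 bp before the transcription start site (TSS) of any annotated transcript and ends 500 bp after it, and a gene counted as bound in a replicate if a peak overlapped such a window by at least 1 bp. Distances of promoter peaks run from a TSS to the peak midpoint unless a border is named. Distances to the nearest peak, given in kb, run from the reference TSS to the near border of that peak. The reference TSS of a gene is the most upstream TSS of its protein-coding transcripts.

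To show the promoters behind these calls, sequences are given for the 250 bases upstream of the reference TSS at the 3 genes bound in both replicates, at the gene bound in replicate 2 only, and at 2 genes with no peak, together with the peak near Trim28. They are given 5′ to 3′ along the strand of the gene (GRCm38), in lower case with each CpG dinucleotide in capitals. The upstream stretch of Cbx3 (chr6:51470110-51470359, plus strand) held 19 CpGs, and 240 of its bases lay in the replicate 1 peak and all 250 in the replicate 2 peak.
Cbx3: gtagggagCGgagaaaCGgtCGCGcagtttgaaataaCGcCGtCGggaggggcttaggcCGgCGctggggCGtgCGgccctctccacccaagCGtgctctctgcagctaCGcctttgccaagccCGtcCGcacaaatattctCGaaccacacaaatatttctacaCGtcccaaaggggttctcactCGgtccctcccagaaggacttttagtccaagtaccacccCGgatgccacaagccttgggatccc
That of Cbx5 (chr15:103239817-103240066, minus strand) held 23 CpGs and lay whole within the replicate 2 peak, with 0 bases in the replicate 1 peak.
Cbx5: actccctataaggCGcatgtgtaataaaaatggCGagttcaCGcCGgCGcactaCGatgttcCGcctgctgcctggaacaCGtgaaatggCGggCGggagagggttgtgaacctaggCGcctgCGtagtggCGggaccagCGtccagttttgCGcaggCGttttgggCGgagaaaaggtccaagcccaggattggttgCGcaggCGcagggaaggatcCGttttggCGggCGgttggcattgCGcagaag
That of Daxx (chr17:33909164-33909413, plus strand) held 29 CpGs, with 155 bases in the replicate 1 peak and 250 in the replicate 2 peak.
Daxx: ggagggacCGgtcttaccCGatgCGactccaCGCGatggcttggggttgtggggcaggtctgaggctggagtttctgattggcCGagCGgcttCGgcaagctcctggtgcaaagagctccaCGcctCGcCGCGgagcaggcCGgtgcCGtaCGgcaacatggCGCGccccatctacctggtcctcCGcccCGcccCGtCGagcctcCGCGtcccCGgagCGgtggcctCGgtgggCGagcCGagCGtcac
That of Suv39h2 (chr2:3475032-3475281, minus strand) held 25 CpGs and lay whole within the replicate 2 peak.
Suv39h2: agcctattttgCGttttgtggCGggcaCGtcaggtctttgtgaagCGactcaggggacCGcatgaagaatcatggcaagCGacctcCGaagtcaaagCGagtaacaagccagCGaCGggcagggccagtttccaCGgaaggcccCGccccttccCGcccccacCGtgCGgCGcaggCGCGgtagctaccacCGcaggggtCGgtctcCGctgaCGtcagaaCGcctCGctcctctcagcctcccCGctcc
Setdb1 and Cbx1 are shown as genes of the same pathway without a promoter peak. The stretch of Setdb1 (chr3:95357203-95357452, minus strand) held 13 CpGs and that of Cbx1 (chr11:96788877-96789126, plus strand) 14, the lowest numbers among the 5 genes without a promoter peak. Those of Ehmt2, Morc3 and Ehmt1, which are not shown, held 16, 17 and 25, so Ehmt1 had more CpGs than Cbx3 and Cbx5.
Setdb1: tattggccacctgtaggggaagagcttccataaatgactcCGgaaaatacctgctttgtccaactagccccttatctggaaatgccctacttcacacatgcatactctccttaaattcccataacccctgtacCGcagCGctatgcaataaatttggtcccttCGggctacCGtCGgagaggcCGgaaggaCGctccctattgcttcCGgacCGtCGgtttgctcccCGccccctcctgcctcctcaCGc
Cbx1: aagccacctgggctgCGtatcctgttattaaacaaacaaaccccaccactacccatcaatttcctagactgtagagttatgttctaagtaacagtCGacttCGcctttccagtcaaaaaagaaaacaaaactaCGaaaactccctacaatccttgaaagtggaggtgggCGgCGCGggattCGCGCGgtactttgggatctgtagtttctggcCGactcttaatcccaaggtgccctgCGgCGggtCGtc
The replicate 1 peak near Trim28 (chr7:13023020-13023269, plus strand) is shown whole and held 12 CpGs.
Trim28 peak: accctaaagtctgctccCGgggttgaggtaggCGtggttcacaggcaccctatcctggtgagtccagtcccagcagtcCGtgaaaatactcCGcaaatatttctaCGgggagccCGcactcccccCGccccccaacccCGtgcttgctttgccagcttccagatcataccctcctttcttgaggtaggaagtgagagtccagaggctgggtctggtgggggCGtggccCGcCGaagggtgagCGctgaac

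To ask which of these genes had SRCAP at their promoter, each list was overlapped with the windows. Cbx3, Cbx5 and Daxx had a promoter peak in both replicates. Trim28 had one only in replicate 1, where 3.66% of all protein-coding genes showed this pattern, and Suv39h2 only in replicate 2, where 18.3% did. Setdb1, Cbx1, Morc3, Ehmt1 and Ehmt2 had none in either list. As the depth is unknown, a missing peak does not show that SRCAP was absent. Thus 4 of 10 genes were bound in replicate 1 and 4 of 10 in replicate 2, a mean of 4 ± 0 (SD, n = 2), and 3 of 10 in both. Among all protein-coding genes, 15.7% were bound in replicate 1 (95% Wilson interval 15.2 to 16.2%), 30.4% in replicate 2 (29.8 to 31.0%), 12.0% in both (11.6 to 12.5%) and 34.0% in at least 1, as were 5 of the 10 genes.

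The 10 genes differed from that background in features of the annotation and sequence. Each had at least 4 annotated transcripts, and the ratio of observed to expected CpGs in the window of the reference TSS was 0.640 or more in each. Of protein-coding genes with at least 4 transcripts 17.2% were bound in both replicates, and of those with such a CpG ratio 21.5%. For the 4709 genes that met both values the share was 28.1% for the first list, 53.7% for the second, 22.9% for both and 58.8% for at least 1. These backgrounds were chosen after the data had been seen. Against the last of them, the 10 genes were above the share for replicate 1 and for both replicates and below it for replicate 2 and for at least 1 replicate. No test of these differences was made.

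**Figure D1:**
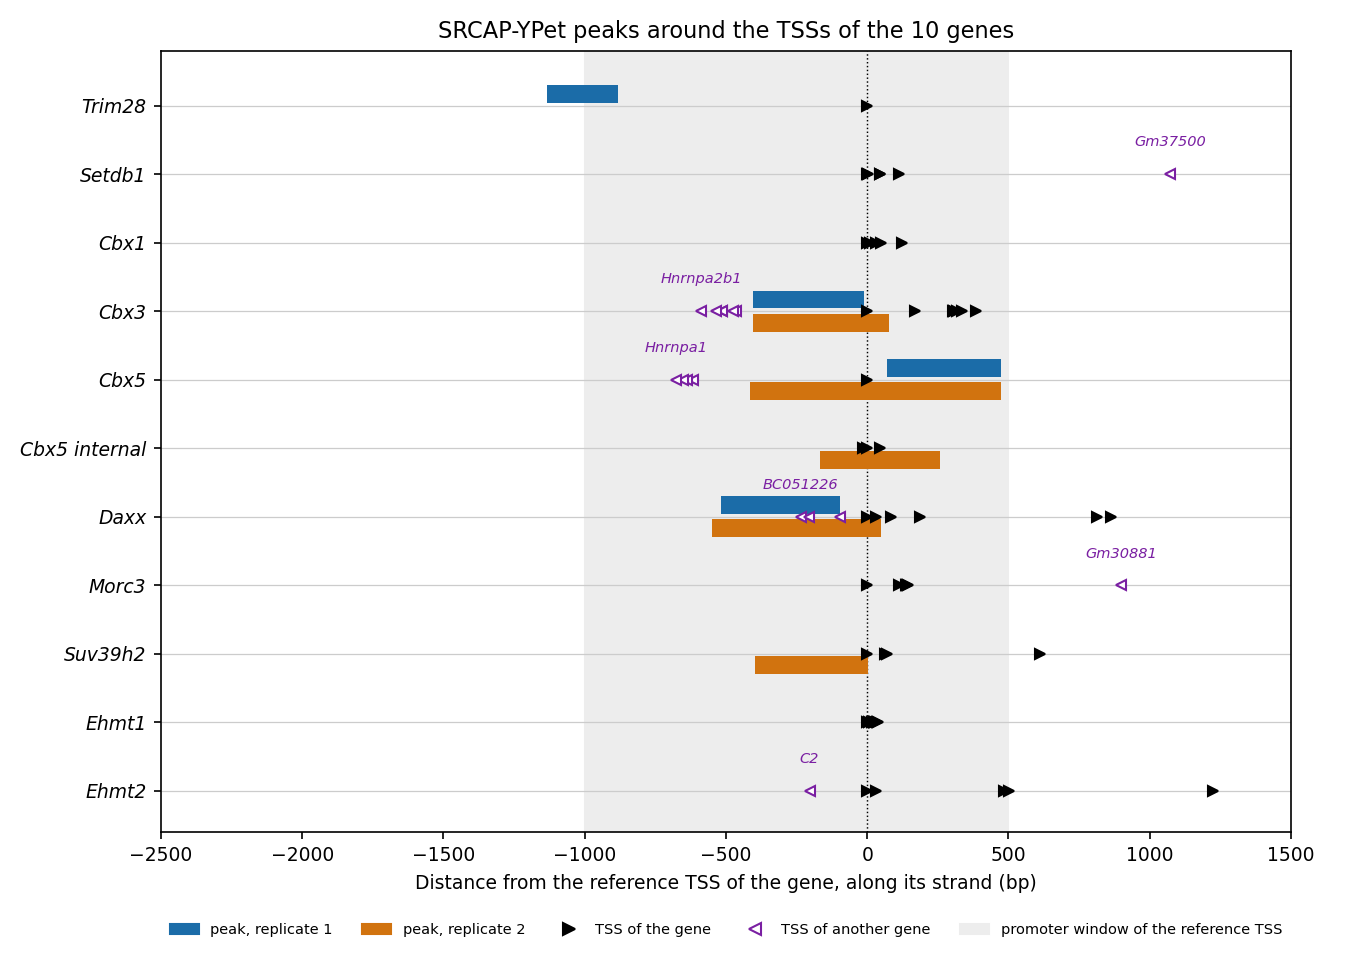
Peaks of replicate 1 (blue) and replicate 2 (orange) around the reference TSS of each gene, with the distance along the strand of the gene in bp on the x axis, TSSs of the gene as black arrowheads and TSSs of other genes as open purple arrowheads. The row Cbx5 internal is centred on the internal promoter of Cbx5, and the grey band is the promoter window. Peaks of both replicates are seen at Cbx3, Cbx5 and Daxx, a single peak at Trim28 whose near border is 883 bp upstream of the TSS, and none in this range at 5 genes.

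The HP1 genes differed among themselves. Cbx3 (chr6:51470360-51483704, plus strand), which encodes HP1γ, was bound in both replicates, at chr6:51469955-51470349 in replicate 1 (395 bp, score 81) and chr6:51469955-51470436 in replicate 2 (482 bp, score 152). These are the highest scores among the promoter peaks of the 10 genes in each list, at the 92.2 and 98.1 percentile of promoter peaks. Both peaks began at the same base and shared 395 bp. The midpoints lay 208 bp and 165 bp upstream of the reference TSS, which the replicate 2 peak contained and the replicate 1 peak missed by 11 bp. On the other side, the gene Hnrnpa2b1, which encodes an RNA-binding protein, starts 466 bp from the Cbx3 TSS on the opposite strand. Both peaks ended 61 bp short of the nearest Hnrnpa2b1 TSS. By the same rule, both were also promoter peaks of Hnrnpa2b1, so they cannot be assigned to Cbx3 alone. All of the replicate 1 peak and 84.0% of the replicate 2 peak lay in the stretch between the genes, and 14.9% of the latter in the first exons of Cbx3.

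Cbx5 (chr15:103191544-103239816, minus strand), which encodes HP1α, has 2 promoter regions in the annotation. At the upstream one, the replicate 1 peak was at chr15:103239341-103239745 (405 bp, score 30) and the replicate 2 peak at chr15:103239343-103240231 (889 bp, score 74). One border of the peaks was 2 bp apart and the other 486 bp, so that the replicate 2 peak contained the TSS while the replicate 1 peak began 71 bp downstream of it, 96.8% within an intron. The midpoints lay 273 bp and 29 bp downstream of the TSS. The scores were at the 37.7 and 82.3 percentile of promoter peaks. Here too an RNA-binding protein gene, Hnrnpa1, starts on the opposite strand, 616 bp from the Cbx5 TSS. Both peaks at this upstream promoter were also promoter peaks of Hnrnpa1, so they cannot be assigned to Cbx5 alone. At the internal promoter, a peak was called in replicate 2 only, at chr15:103215096-103215519 (424 bp, score 35). It contained 3 annotated TSSs of Cbx5, and its midpoint was 2 bp from the nearest of them.

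Cbx1 (chr11:96789127-96808640, plus strand), which encodes HP1β, had no promoter peak. The nearest peak to its TSS lay 11.4 kb upstream in replicate 1, at the promoter of Snx11 (score 97), and 7.05 kb downstream in replicate 2 (score 28). The latter lay over the gene body of Cbx1 and overlapped the promoter window of the pseudogene Gm11517. The HP1 gene without a promoter peak thus had a high-scoring peak at a neighbouring gene in replicate 1, where the Snx11 peak scored above every promoter peak of the 10 genes in that list.

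Daxx (chr17:33909414-33915590, plus strand), which encodes a chaperone of the histone variant H3.3 and partner of ATRX, was bound in both replicates. The peaks were at chr17:33908898-33909318 in replicate 1 (421 bp, score 71) and chr17:33908863-33909464 in replicate 2 (602 bp, score 32). This was the only one of the 3 genes at which the replicate 1 score was the higher, at the 89.1 percentile against 31.0 in replicate 2. Their midpoints lay 306 bp and 251 bp upstream of the reference TSS, and the replicate 1 peak ended 96 bp before it. The replicate 2 peak contained the reference TSS, with 8.47% of its bases in exon sequence of Daxx. On the opposite strand, 97 bp upstream of the Daxx TSS, starts BC051226, annotated as a long noncoding RNA of a bidirectional promoter. Both peaks contained 3 TSSs of BC051226, and exons of BC051226 made up 99.8% of the replicate 1 peak and 75.6% of the replicate 2 peak. Both peaks at the Daxx promoter thus covered the start of the noncoding gene, and that of replicate 2 also the start of Daxx. Peaks of this width cannot assign the signal to either gene.

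Morc3 (chr16:93832121-93876073, plus strand) encodes a nuclear ATPase that has been linked to heterochromatin and to the silencing of retroviruses. No peak lay over its gene body in either list. The nearest peak was 51.3 kb downstream in replicate 1, at the promoter of Chaf1b (score 26), and 15.6 kb upstream in replicate 2 (score 31).

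At Trim28 (chr7:12999114-13031035, plus strand, reference TSS at 13024152), the call rests on the edge of the window. The replicate 1 peak, chr7:13023020-13023269, was 250 bp wide with a score of 26. It was the narrowest promoter peak of the 10 genes, with a width at the 8.89 percentile and a score at the 29.1 percentile of promoter peaks. Only 118 bp of it lay in the promoter window, its midpoint was 1008 bp upstream of the TSS, and its near border was 883 bp away. All of it lay in an intron of a noncoding transcript of Trim28 that starts further upstream. In replicate 2 the nearest peak was 9.62 kb upstream, at chr7:13014089-13014531 (score 41), within the same noncoding transcript. No peak of either list overlapped the 250 bases upstream of the Trim28 TSS.

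Of the 4 H3K9 methyltransferase genes, Suv39h2 (chr2:3455815-3475031, minus strand) alone had a promoter peak. It was called in replicate 2, at chr2:3475028-3475429 (402 bp, score 39, at the 44.5 percentile of promoter peaks). The peak reached 4 bp into the first exon and otherwise lay upstream of the gene, with its midpoint 197 bp upstream of the TSS. In replicate 1 the nearest peak was 56.0 kb downstream, at the promoter of Meig1 (score 21).

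Setdb1 (chr3:95323525-95357202, minus strand), the methyltransferase that TRIM28 recruits, had no peak over its gene body. Its nearest peak was 39.3 kb downstream in both replicates, at the promoter of Cers2, with scores of 44 and 59. Ehmt1 (chr2:24789928-24919614, minus strand), which encodes GLP, likewise had no peak over its gene body, although its 18 transcripts gave it the widest search space, 14476 bp. The nearest peak was upstream of it at the promoter of Arrdc1 in both replicates, 15.5 kb away with a score of 35 in replicate 1 and 15.2 kb away with a score of 65 in replicate 2. Ehmt2 (chr17:34898469-34914052, plus strand), which encodes G9a, the partner of GLP, had its nearest peaks 35.8 kb downstream in replicate 1 (score 40) and 43.2 kb downstream in replicate 2 (score 25). Peaks were thus called at the same neighbouring promoter in both replicates for Setdb1 and Ehmt1 while their own promoters had none.

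**Figure D2:**
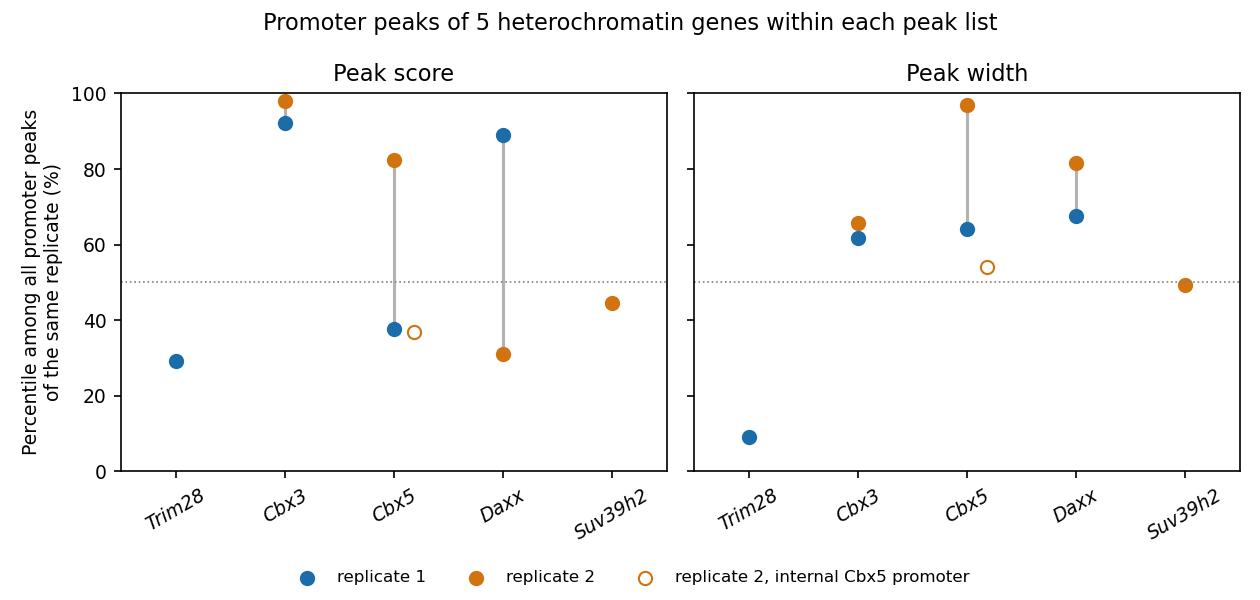
Percentile of the score (left) and width (right) of each promoter peak of the 5 genes with a peak, among all promoter peaks of the same replicate, in percent on the y axis, with replicate 1 in blue and replicate 2 in orange. Grey lines join the peaks of both replicates that overlap, and the open circle is the internal Cbx5 promoter. The Cbx3 scores are close together at 92.2 and 98.1, while Cbx5 and Daxx change places between replicates.

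The peaks of the 5 bound genes were then compared between replicates. At each of the 3 genes bound in both, the replicate 2 peak was the wider, by a ratio of 1.22 at Cbx3, 1.43 at Daxx and 2.20 at Cbx5. The mean widths were 438 ± 61.5 bp, 512 ± 128 bp and 647 ± 342 bp (SD, n = 2). The replicate 2 peaks took in 100%, 100% and 99.5% of the replicate 1 peaks at Cbx3, Daxx and Cbx5. Score order differed between the lists. In replicate 1 Daxx was above Cbx5, at the 89.1 percentile against 37.7, and in replicate 2 below it, at 31.0 against 82.3, with Cbx3 the highest of the 3 in both.

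The position against the TSS differed between the replicates at these few peaks, which were not all at the same promoters. In replicate 1, 0 of 4 promoter peaks contained a TSS of the gene, and in replicate 2 all 5 did. Counting TSSs of any gene, 1 of the 4 in replicate 1 contained one, the Daxx peak with its BC051226 TSSs, and all 5 in replicate 2, against 63.8% and 67.7% of all promoter peaks. The median distance to the nearest TSS was 290 bp in replicate 1 (208 to 1008 bp) and 165 bp in replicate 2 (2 to 251 bp). The median width was 400 bp and 482 bp, against 352 bp and 404 bp for all promoter peaks. If a peak had to contain a TSS of the gene, 0 of the 10 genes would be bound in replicate 1, 4 in replicate 2 and 0 in both, against 9.73%, 20.6% and 6.97% of all protein-coding genes. With a score of at least 50 the counts were 2, 2 and 1, against 4.21%, 13.1% and 2.99%. With the longer list trimmed by score to the length of the shorter, they were 4, 3 and 2, against 15.7%, 19.2% and 9.69%.

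All 3 genes bound in both replicates had another gene starting on the opposite strand within 1000 bp upstream of their reference TSS. Of the other 7 genes, Ehmt2 had such a neighbour, the complement gene C2, which starts 204 bp away. Among all protein-coding genes with such a neighbour, 23.9% of 3091 were bound in both replicates, against 10.1% of 18762 without one. The arrangement is therefore also more often bound among all genes, and its part in the result at these genes was not tested.

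Base content of the promoter windows was then measured, since it does not use the peaks. The median GC content of the 10 windows was 57.5% (50.2 to 66.0%) and the median CpG ratio, observed over expected, was 0.841 (0.640 to 0.986), against 51.8% and 0.491 for all protein-coding genes. Cbx3 had the highest of both, 66.0% and 0.986. The 5 genes without a peak had a median CpG ratio of 0.867, above the 0.671 of protein-coding genes bound in both replicates and the 0.311 of those bound in neither. Cbx1, with no peak, had a ratio of 0.924, and Cbx5, bound in both, 0.907. The ranges of the CpG ratio thus overlapped between genes with and without a peak. Median GC content was 64.1% in the 3 genes bound in both replicates (54.3 to 66.0%) and 53.4% in the 5 bound in neither (50.2 to 62.2%), and these ranges overlapped too. Setdb1 had the lowest of both values, 50.2% and 0.640, and the highest soft-masked (repeat) share of the window, 29.0%.

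**Figure D3:**
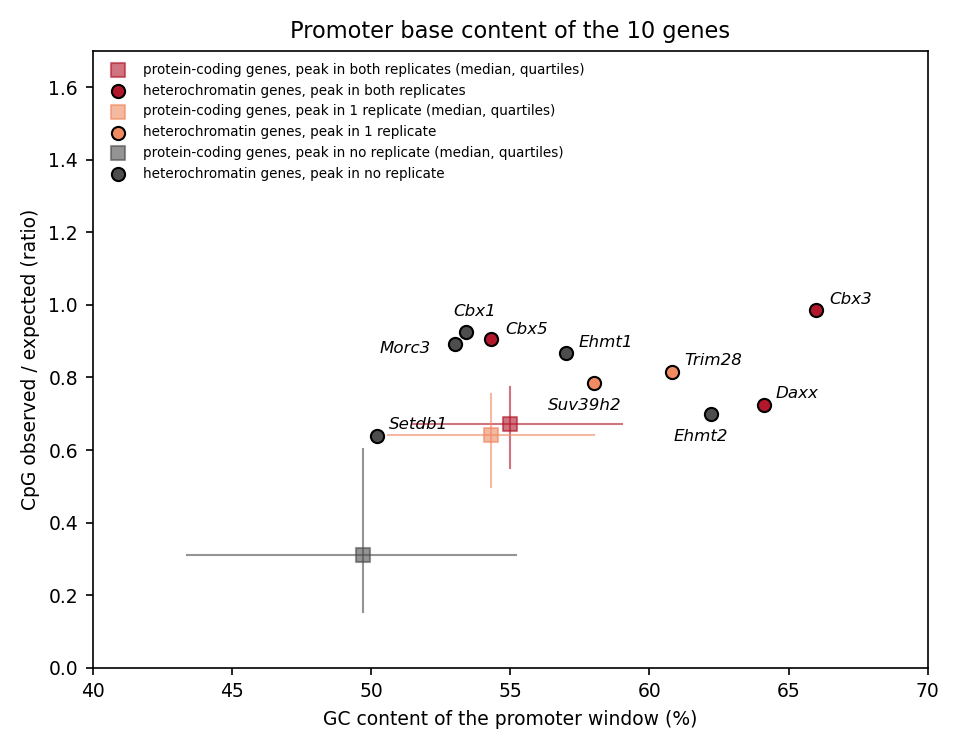
GC content in percent (x axis) and the ratio of observed to expected CpGs (y axis) of the promoter window of each gene (circles), with the median and quartiles of protein-coding genes grouped by the replicates in which they were bound (squares with lines). The circles lie at ratios from 0.640 to 0.986, and genes with and without a peak are mixed.

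Short motifs were searched on both strands of the 250 bases upstream of the reference TSS. The GC box GGGCGG, bound by SP and KLF factors, was present at 9 of the 10 genes, all but Cbx3, against 39.9% of all protein-coding genes and 62.5% of those bound in both replicates. This motif contains a CpG, the windows of the 10 genes were rich in CpG, and no background of equal CpG content was made for motifs. The CCAAT box of NF-Y was present at Setdb1, Cbx5, Daxx, Morc3 and Ehmt1, 5 of 10, against 36.1% and 42.7%. The E-box CACGTG was found at Cbx5 and Ehmt2 (6.52% of all genes), the ETS core CCGGAA at Setdb1 (13.9%), and the CRE sequence TGACGTCA at Suv39h2, starting 40 bases upstream of the TSS (2.00%). The YY1 sequence AAGATGGC and the palindromic NRF1 sequence were found at 0 of 10, against 1.47% and 0.947%. Matches of different motifs did not overlap, and the GC boxes of Daxx shared 1 base. A match is a run of letters and not a bound site.

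To place the 10 genes in their pathway, the same rule was applied to 48 other genes of heterochromatin, in 7 lists. A peak was present at 21 of them (43.8%) in replicate 1, at 24 (50.0%) in replicate 2 and at 16 (33.3%) in both. These shares compare with 15.7%, 30.4% and 12.0% of all protein-coding genes. Of genes as rich in CpG and transcripts as the 10 genes, a background not set on the partner genes, they compare with 28.1%, 53.7% and 22.9%, so that the partner share was below it in replicate 2. Some partner peaks were also promoter peaks of another gene, among them those at Zfp932, Setdb2, Mphosph8, Hira, Ubn1, Morc2a and Kdm4d. Such a peak cannot be assigned to either gene.

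Partners of TRIM28 and SETDB1 were bound in 6 of 12 cases in replicate 1 and 8 in replicate 2, and 5 genes were bound in both. Among these were Atf7ip, which encodes a cofactor of SETDB1, the zinc finger gene Zfp932, the SUMO gene Sumo2 and the histone deacetylase gene Hdac2. Atf7ip had 2 promoters bound in both replicates, at chr6:136518756-136519036 (score 43) and chr6:136532691-136532930 (score 35) in replicate 1 and at chr6:136518759-136519036 (score 55) and chr6:136532618-136533020 (score 70) in replicate 2. Zfp932 had scores of 44 and 50, Hdac2 25 and 79, and Sumo2 13 and 31. Atf7ip2 was bound in replicate 1 only, Trim33, Zfp809 and Hdac1 in replicate 2 only, and Trim24, Zfp57 and Chd4 in neither. The SETDB1 cofactor gene Atf7ip was thus bound in both replicates while Setdb1 itself was bound in neither.

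Among H3.3 and its chaperones, 4 of 7 genes were bound in each replicate and 3 in both. These were Atrx, which encodes the partner of DAXX (scores 15 and 26), and Hira (37, and 26 at each of 2 peaks in replicate 2) and Ubn1 (20 and 31) of the HIRA complex. No Hira peak contained a Hira TSS, and all were also promoter peaks of Mrpl40. The Ubn1 peaks were also promoter peaks of Glyr1. H3f3b was bound in replicate 1 only, H3f3a in replicate 2 only, and Cabin1 and Asf1a in neither. The Atrx scores were at the 5.39 and 19.4 percentile of promoter peaks. Daxx, its partner gene, was bound in both replicates by the same rule, but not with a score of at least 50, with a TSS inside the peak or with lists of equal length, and its peaks also cover the start of BC051226.

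Among other histone methyltransferases and partners of G9a and GLP, 3 of 7 were bound in each replicate, the same 3 genes. Kmt5c, an H4K20 methyltransferase gene, had scores of 133 and 57, Setdb2 49 and 79, and Zfp644, which encodes a partner of G9a, 29 and 22. Suv39h1, Prdm2, Kmt5b and Wiz had no promoter peak. The H3K9 demethylase genes, whose products remove the mark, were bound in 5 of 6 cases in replicate 1 and 3 in replicate 2, with Kdm3a (23 and 59), Kdm4a (64 and 99) and Kdm4c (13 and 45) bound in both. Kdm4b, with a score of 117, and Kdm4d were bound in replicate 1 only, and Kdm3b in neither.

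In the HUSH complex and its partner MORC2, 1 of 4 genes was bound in replicate 1 and 3 in replicate 2. Mphosph8, which encodes a reader of methylated H3K9, was bound in both (scores 78 and 53), Fam208a and Morc2a in replicate 2 only, and Pphln1 in neither. Of 9 genes of HP1 partners and heterochromatin assembly, 2 were bound in replicate 1, 3 in replicate 2 and 1, Chaf1b, in both (scores 26 and 64). Lmnb2 was bound in replicate 1 only, Smchd1 and Hells in replicate 2 only, and Chaf1a, Lbr, Adnp, Uhrf1 and Lmnb1 in neither. The other MORC family genes Morc1, Morc2b and Morc4 were bound in 0 of 3 cases, as was Morc3 above.

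**Figure D4:**
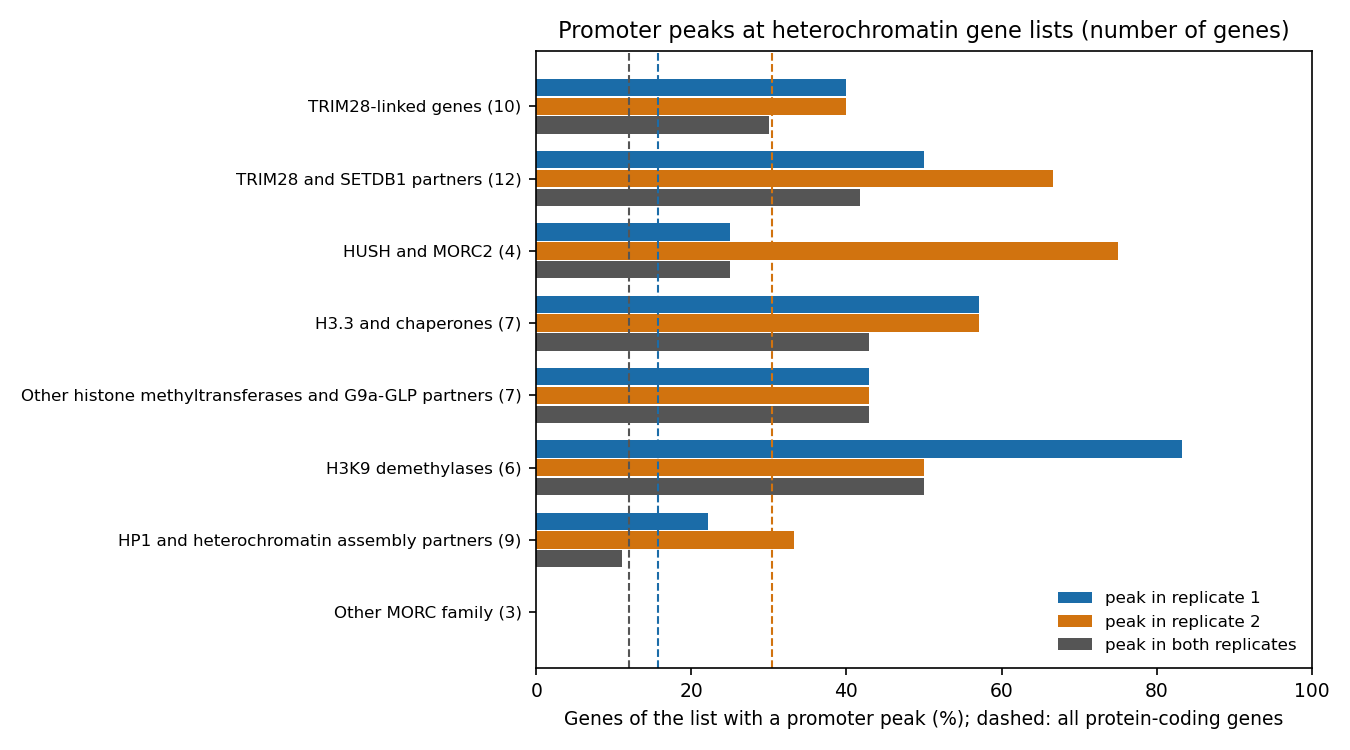
Percent of the 10 genes (top) and of the genes of each list with a promoter peak in replicate 1 (blue), replicate 2 (orange) and both replicates (grey), with the number of genes in parentheses and dashed lines for all protein-coding genes, at 15.7%, 30.4% and 12.0%. The bars rest on 3 to 12 genes each, and no bar is drawn for the other MORC genes because none was bound.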

How the data were processed

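The authors mapped SRCAP-YPet by CUT&Tag in 2 samples of 200000 SYAT cells and deposited a list of peaks for each, called with MACS2 in that sample alone. Per the submitters' processing notes, STAR and Picard were used, with the builds mm10 and dm6. The deposited score is a whole number given by the peak caller. Its minimum of 13 is what a q-value of 0.05 gives on the −log10 scale of MACS2, multiplied by 10 and truncated. The study's general MACS2 command, listed with its ChIP-seq details, takes an input library as control, and whether one was used for CUT&Tag is not stated in the sources used here. The study's methods, in a section for ChIP-seq and CUT&Tag, state that reads off the autosomes and sex chromosomes were removed and that mouse reads were downsampled by Drosophila spike-in reads before peak calling. Each list holds 6 mitochondrial peaks, so it is unsure that all these steps apply to these lists. Depth is unknown, so the lengths and scores of the lists could not be adjusted for it.

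Both samples form 1 group, so values are given per replicate with no test between groups. Promoters used GENCODE mouse release 21 on GRCm38, the assembly of mm10. Base content was read from RefSeq's copy of that assembly, for the 21853 protein-coding genes with a protein-coding transcript. Wilson intervals are 95% and cover counting error only. The overlap code was tested on simulated data and found 200 of 200 planted genes among 3000.

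The genes and lists were chosen with earlier results of these data known. All 10 genes were named, and partner genes bound in both replicates were named with their scores, except 1 that is counted but not reported here. Peaks were overlapped in Python 3.11.15 with pandas 2.3.3 and numpy 2.4.6, sequence was read with samtools 1.23.1 and pyfaidx 0.9.0.4, intervals came from scipy 1.17.1 and plots from matplotlib 3.10.9.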

Additional observations from a re-analysis of the deposited data

How the results depend on the processing

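Of 61 alternative values that do not leave out a replicate, 48 kept close to the reported value, that is within 1.5-fold for a count, with the median distances to the TSS the same for protein-coding transcripts. The other 13 are given here, and they include the base content medians and the background percentages, which have no such bound and are listed whatever the size of their shift. Cbx3 was the only gene bound in both replicates when a score of at least 50 was required. Then 2 genes were bound in replicate 1 (Cbx3 and Daxx), 2 in replicate 2 (Cbx3 and Cbx5) and 1 in both, and of the 48 partner genes 4, 13 and 3. Of all protein-coding genes, 4.21%, 13.1% and 2.99% were bound at that score. Under the stricter rule that a TSS of the gene lies inside the peak, 0 of the 10 genes were bound in replicate 1 and 0 in both, and 13 partner genes in replicate 1. By that rule 9.73% of all protein-coding genes were bound in replicate 1 and 6.97% in both. When the longer list was trimmed by score to as many peaks as the shorter one, Daxx was lost in replicate 2 and 2 genes were bound in both. The share bound in both was then 9.69% of all protein-coding genes. Trim28 was lost when the midpoint had to lie in the window and with a window of 500 bp on each side. The 3 genes bound in both kept their peaks under both of these, with a window from 2000 bp upstream, with protein-coding or basic transcripts only, and after removal of mitochondrial peaks and of those with 50% or more soft-masked bases, which was added once the data had been seen. In a window of 500 bp on each side, the median GC content of the 10 genes was 63.2% and the median CpG ratio 0.926. With a shared overlap of at least 50% of both peaks, 2 of 3 pairs remained, Cbx3 and Daxx. Counting only genes with at least 4 annotated transcripts, or only genes as rich in CpG as the lowest of the 10, 17.2% and 21.5% of protein-coding genes were bound in both replicates. The cause of the other shifts was not tested.

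Leaving out 1 replicate leaves the value of the other. The number of the 10 genes bound stayed at 4, that of partner genes ranged from 21 to 24, the median score from 39 to 50.5, the median width from 400 to 482 bp and the median distance to the TSS from 165 to 290 bp. With 2 replicates, this says nothing about stability. No paired analysis was possible because both samples belong to 1 group. Unknown depth limits every statement on a gene without a peak.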

Other observations

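The wider surroundings of the 10 genes also differed. Within 100 kb of the reference TSS, Trim28 had 3 peaks in replicate 1 and 10 in replicate 2, the highest number in replicate 2. Cbx1 had 3 and 6, Daxx 3 and 5, and Cbx5 1 and 5. Setdb1 had 1 and 3, and Ehmt1, which had no peak over its gene body of either list, 1 and 2, the lowest in replicate 2. Morc3 had 1 and 5 and Ehmt2 2 and 4, although neither had a promoter peak. These numbers are not corrected for the number of neighbouring genes, and the lists differ in length.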
